A study of Mus musculus with 6 samples.

Results

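Glycolysis and hypoxia response genes were followed in mouse choroid endothelial cells (ECs), the cells that line the vessels behind the retinal pigment epithelium (RPE), at postnatal day 5 (P5) and postnatal day 30 (P30). The members were a fixed list of 36 gene symbols, of which 35 were found among the 22026 symbols with an expression value. The missing symbol, Pkm, is the present name of the gene listed as Pkm2. The members comprised 17 glycolytic enzymes, 4 kinases that set the flow through the pathway, 6 genes for hypoxia-inducible factor (HIF) subunits and their oxygen sensing, and 8 genes of the hypoxia response. There were 3 isolations at each age, each from 7 pooled mice. The P30 mice were 129/B6 of both sexes, and the strain and sex of the P5 pups are not stated in the sources used here. No drug or genotype is described as setting the ages apart. The anaesthesia and the amount of labelling antibody differed, P5 pups being cooled and given less. In all isolations ECs had been labelled in the living animal with an antibody to VE-Cadherin, an EC adhesion protein, and then sorted by flow cytometry from dissected RPE/choroid. Values are FPKM, that is, sequenced fragments scaled for the length of the transcript and the size of the library, here with the authors' upper quartile scaling. They are per length, so that genes can be ranked by level. Differences are given as P30 minus P5 in log2(FPKM + 1), where a low gene's change is understated, and were tested with limma over 12481 genes, those whose mean FPKM reached 5 at either age. A member is said to have risen or fallen where the adjusted p (Benjamini-Hochberg) was under 0.01. The pooled isolations are the replicates here, and the depth of sequencing is unknown.

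Glycolysis breaks glucose down to pyruvate in the cytosol, and lactate dehydrogenase turns pyruvate into lactate. ECs are known for drawing most of their energy from this pathway although they lie next to oxygen-carrying blood. When oxygen is plentiful, prolyl hydroxylases of the EGLN family mark HIF alpha subunits and the VHL protein directs them to destruction. When oxygen falls, HIF1A and EPAS1 (also called HIF-2 alpha) persist, pair with ARNT and switch on genes that carry the short sequence ACGTG or GCGTG, among them many glycolytic genes.

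The bases before the start site are shown for 4 members that rose or fell and had a window in the RefSeq promoter table, and for Ldha, whose window held the most ACGTG letters of any member. Each is the 250 bases upstream of a RefSeq start site in GRCm38.p6, read 5′ to 3′ on the strand of the gene, and capitals mark ACGTG or GCGTG on either strand.
Ddit4, chr10:59951771-59952020, minus strand: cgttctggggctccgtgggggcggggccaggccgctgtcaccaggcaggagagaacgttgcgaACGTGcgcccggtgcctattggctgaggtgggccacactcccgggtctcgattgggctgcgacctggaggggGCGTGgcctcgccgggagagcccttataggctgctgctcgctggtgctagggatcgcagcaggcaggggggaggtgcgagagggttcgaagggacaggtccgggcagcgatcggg
Aldoa, chr7:126799255-126799504, minus strand: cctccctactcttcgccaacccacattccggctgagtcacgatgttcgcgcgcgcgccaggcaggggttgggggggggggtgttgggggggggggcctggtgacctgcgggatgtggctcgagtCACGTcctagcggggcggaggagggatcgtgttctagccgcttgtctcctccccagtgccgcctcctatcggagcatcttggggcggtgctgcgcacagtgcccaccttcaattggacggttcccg
Pdk3, chrX:93832151-93832400, minus strand: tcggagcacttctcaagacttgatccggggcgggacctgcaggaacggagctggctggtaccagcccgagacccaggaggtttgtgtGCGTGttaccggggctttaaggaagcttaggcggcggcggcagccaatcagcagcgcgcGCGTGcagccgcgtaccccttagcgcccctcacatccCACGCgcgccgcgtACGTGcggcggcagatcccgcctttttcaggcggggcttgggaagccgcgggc
Vhl, chr6:113623744-113623993, plus strand: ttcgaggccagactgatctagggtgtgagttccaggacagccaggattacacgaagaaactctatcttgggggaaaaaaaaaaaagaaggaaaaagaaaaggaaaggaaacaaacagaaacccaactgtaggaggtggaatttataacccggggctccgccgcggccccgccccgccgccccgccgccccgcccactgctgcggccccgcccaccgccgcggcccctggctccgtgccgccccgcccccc
Ldha, chr7:46845554-46845803, plus strand: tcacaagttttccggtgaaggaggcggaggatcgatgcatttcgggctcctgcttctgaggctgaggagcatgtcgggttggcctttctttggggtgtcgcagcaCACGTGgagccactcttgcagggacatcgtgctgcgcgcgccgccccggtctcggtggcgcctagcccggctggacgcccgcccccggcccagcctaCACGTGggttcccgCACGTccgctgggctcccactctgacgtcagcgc
ACGTG, searched on both strands, was present in 16.6% of all 32851 windows of this length in the table, and in 21 of the 46 windows (45.7%) of the 32 members matched. GCGTG, searched likewise, was present in 28.2% of all windows and in 26 of the 46 member windows (56.5%). Windows of one gene can overlap, and many members were listed because they belong to the hypoxia response. The windows compared were also not matched for their content of G and C, so these shares describe the list. The Ddit4 window held ACGTG once and GCGTG once, the Pdk3 window held ACGTG once and GCGTG 3 times, and the Aldoa window shown, 1 of 3 listed for the gene, held ACGTG once. In the Vhl window neither run of letters was found. The Ldha window shown held ACGTG 5 times, counting a match and its mirror at CACGTG as separate matches. Another window listed for Ldha held GCGTG once and no ACGTG. The level of Ldha did not pass the test of age.

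The endothelial label was checked first. All 10 endothelial markers in the list used for this check were present in every isolation, and their summed FPKM was between 23630 and 25877 at P5 and between 33554 and 41522 at P30. Of the 10, 3 rose and 1 fell, where 8.51% of all genes tested rose and 10.7% fell. The one that fell was Cdh5, the gene for VE-Cadherin, from a mean of 2971 to 1885 (log2 difference -0.66, adjusted p = 0.00205 from limma). Plvap alone went from a mean of 4692 to 11590. Markers of other cells were also present, in amounts that differed between isolations. The summed FPKM of 8 RPE markers was, in the order of replicates 1 to 3, 222, 86.4 and 85.8 at P5 and 4012, 2296 and 522 at P30, and 5 of the 7 tested rose. Values below keep this order. The sum of 11 pericyte and smooth muscle markers was 1898, 1029 and 573 at P5 and 2230, 7139 and 4057 at P30, and 1 of the 10 tested rose. For 7 fibroblast markers the sum was 1193, 725 and 1189 at P5 and 1782, 4490 and 2387 at P30, and 1 of the 7 tested rose. The sum of 10 photoreceptor markers was between 2.21 and 8.49 at P5 and between 41.8 and 382 at P30, with Pde6a, Rcvrn, Cnga1 and Gngt1 listed at 0 throughout P5. The sum of 7 haematopoietic markers was between 541 and 802 at P5 and between 318 and 809 at P30, and 2 of them fell. The median log2 difference of the tested markers was 3.70 for RPE, 3.32 for photoreceptor and 1.90 for pericyte and smooth muscle markers. For fibroblast markers it was 1.53 and for haematopoietic markers -0.73, against -0.10 over all genes tested. P30 replicate 3 had the lowest RPE and photoreceptor sums of the 3 P30 isolations, and P30 replicate 2 the highest pericyte and fibroblast sums. In such sorted pools, a different share of other cells and a different amount of RNA per cell cannot be told apart. The part of these cells in the results below was not tested, and leaving out an isolation does not test it, since every P30 isolation had a higher RPE sum than every P5 isolation.

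Of the 35 members, 33 had enough signal to be tested. In all, 4 genes rose with age, namely Ddit4, Aldoa, Ndrg1 and Epas1, and a pair, Vhl and Pdk3, fell. The share of tested members past the threshold, 6 of 33 (18.2%), was close to the 19.2% of all genes tested. By direction, 12.1% of the members rose against 8.51% of all genes, and 6.06% fell against 10.7%. At the limit of a 2-fold difference, the members past it were Ddit4 and Aldoa, both higher at P30, 6.06% of members against 5.89% of all genes, and no member was lower where 5.82% of all genes were, which makes 11.7% for both directions. With each sample rescaled to the same summed FPKM, 4 of the 32 members tested rose and 6 fell (31.2%), where 28.7% of all genes passed, 7.53% higher and 21.2% lower. Under that scaling the members past 2-fold were Ddit4, higher at P30, and Vhl and Pdk3, lower at P30, while Aldoa at 0.98 was under 2-fold. The median difference was 0.14 over the 33 members and -0.10 over all genes tested. The 33 leave out Hk2 and Car9, lower in all P30 isolations, and hold Aldoc and Eno2 through their P30 means alone. All P30 isolations lay above all P5 isolations for 8 tested members, where 22.0% of all genes did so, and below them for 6, where 33.0% did.

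**Figure D1:**
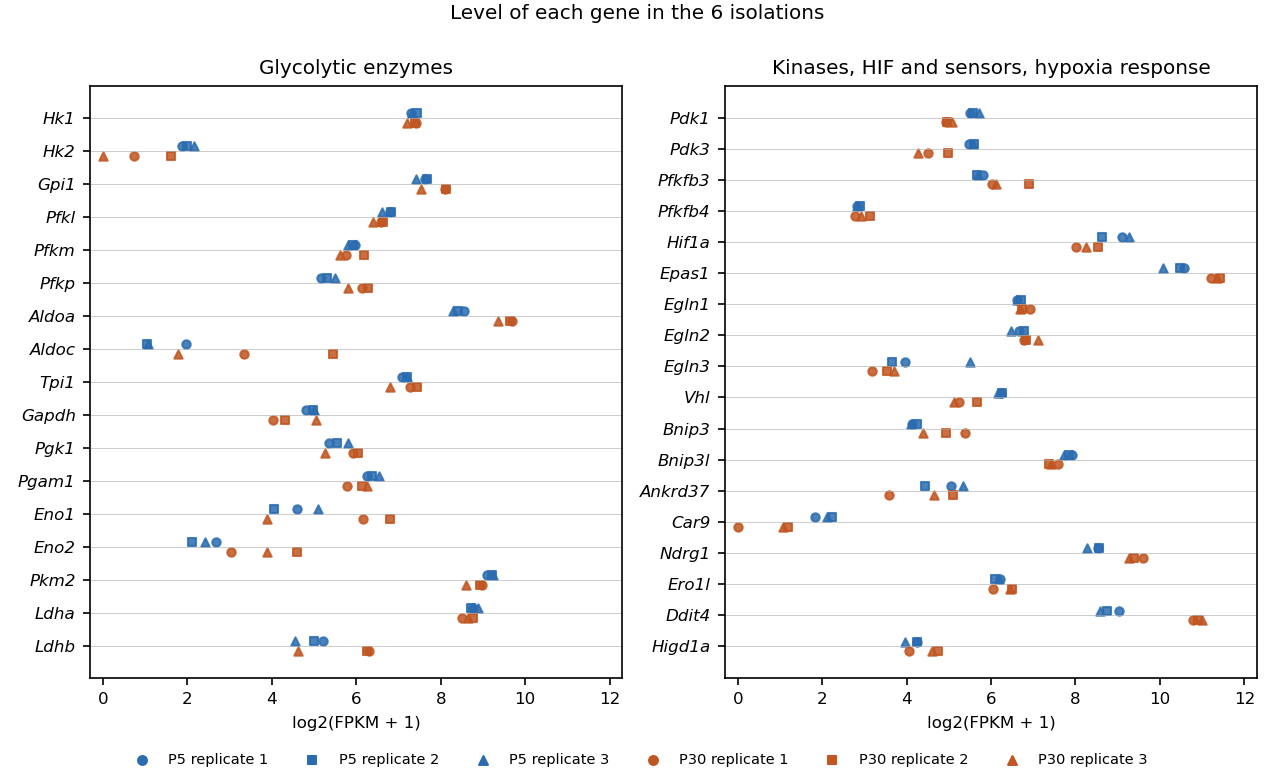
Level of each of the 35 members in the 6 isolations as log2(FPKM + 1), with P5 in blue and P30 in orange and the marker shape giving the replicate. Ddit4, Aldoa, Ndrg1 and Epas1 separate by age to the right, Vhl and Pdk3 to the left, and P30 replicates lie far apart for Aldoc, Eno1 and Ldhb.

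Among the enzymes, Aldoa rose and no other member of the pathway did. Aldoa, which encodes aldolase A and splits fructose 1,6-bisphosphate into a pair of 3-carbon sugars, had an FPKM of 374, 340 and 312 at P5 and 828, 803 and 653 at P30. Each P30 value was well above each P5 value. The means were 342 ± 31.0 (SD, n = 3) and 761 ± 94.7, a ratio of 2.23, and the log2 difference was 1.15 (SE 0.12, adjusted p = 0.000694 from limma). The difference lay between 0.96 and 1.26 in all 17 alternative fits and passed the threshold in each. The gene lies on chromosome 7, 133938748 to 133944265 of mm9. Aldolase A is also abundant in muscle and red cells. The skeletal muscle markers summed to between 5.69 and 12.9 at P5 and between 12.4 and 29.6 at P30, with Tnni2 listed at 0 in all 6 isolations. The erythroid markers summed to between 175 and 491 at P5 and between 442 and 1830 at P30, and the lowest P30 sum was again that of replicate 3. None of the 5 tested passed the threshold, though their median log2 difference was 1.43. Without P30 replicate 3 the Aldoa difference was 1.26. The part of muscle and red cells in the Aldoa level was not tested.

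At the entry steps of glycolysis, neither Hk1 nor Gpi1 passed the test. Hk1, the hexokinase that traps glucose in the cell, had 162 ± 8.97 FPKM at P5 and 160 ± 12.4 at P30 (log2 difference -0.02, SE 0.10, adjusted p = 0.892 from limma). Its inducible counterpart Hk2 was close to absent, between 2.65 and 3.48 at P5 and between 0 and 2.04 at P30, and too low for the test. All its P30 values lay below all P5 values, with a P5 over P30 ratio of the means of 3.36. Gpi1, glucose phosphate isomerase, had 195, 205 and 169 at P5 and 275, 277 and 184 at P30, and the ages overlapped through P30 replicate 3 (log2 difference 0.35, adjusted p = 0.154 from limma).

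Phosphofructokinase, the committed step, is made from a liver, a muscle and a platelet type of subunit. Pfkp, the platelet type, had an FPKM of 34.7, 38.5 and 44.0 at P5 and 68.9, 76.6 and 54.6 at P30. All P30 values lay above all P5 values, but the difference of 0.75 (SE 0.17, adjusted p = 0.0120 from limma) narrowly missed the threshold, and without P30 replicate 3 it was 0.89 with an adjusted p of 0.00693. With median-of-ratios scaling and with quantile normalization it also passed, at 0.83 and 0.82, and these are the only 3 of the 17 alternative fits in which it did. After rescaling to the same sum it was 0.58 (adjusted p = 0.0174 from limma), and the highest adjusted p of the 17 was 0.0509. Pfkl, the liver type, had 107 ± 8.51 and 92.4 ± 7.95, and Pfkm, the muscle type, had 58.8 ± 3.43 and 57.6 ± 12.8. As a share of the summed FPKM of the 3 subunits, which does not depend on the scaling of a sample, Pfkp made up 16.8%, 18.3% and 22.5% at P5 and 31.8%, 31.0% and 29.4% at P30. The share of Pfkl was 53.5%, 53.3% and 49.5% at P5 and 43.8%, 39.9% and 44.9% at P30. Pfkl thus remained the leading subunit in each isolation while Pfkp passed Pfkm in rank in each P30 isolation. The 2 ages did not overlap in either share (exact two-sided permutation test, p = 0.1 for each, the smallest that 3 against 3 allow, and 0.233 after adjustment over the 7 shares tested). Pfkp shares exonic sequence with Pitrm1 on the opposite strand in the GENCODE annotation of mm9, and Hk1, Gpi1, Tpi1, Hif1a, Egln2, Ankrd37, Car9 and Ndrg1 overlap other genes in the same way. The libraries were made with the TruSeq RNA kit and aligned with TopHat at its defaults, which take a library as unstranded, so reads of a gene and of its partner on the other strand cannot be told apart there.

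**Figure D2:**
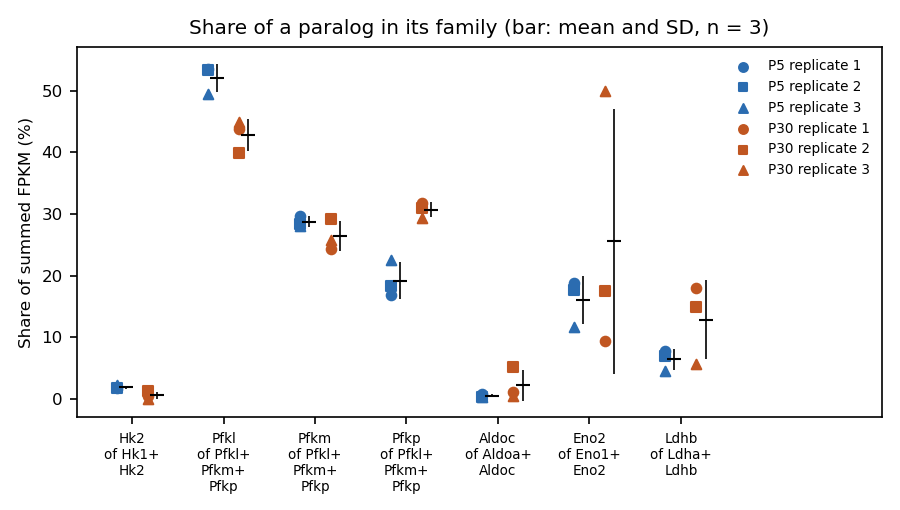
Share of a paralog in the summed FPKM of its family, in percent, for each isolation (P5 blue, P30 orange, marker shape for the replicate), with the mean and SD of 3 isolations beside the points. The mean share of Pfkp was 19.2% at P5 and 30.7% at P30 without overlap of the ages, while the shares of Eno2, Ldhb and Aldoc were scattered at P30.

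In the lower steps Pkm2 and Ldha were the most abundant. Pkm2, pyruvate kinase, was the highest of all the enzymes at P5, though below Aldoa at P30, with 550, 595 and 600 FPKM at P5 and 507, 490 and 386 at P30. Every P30 value was lower, but the difference of -0.34 (SE 0.12, adjusted p = 0.0629 from limma) did not pass, except with quantile normalization (-0.52) and after rescaling to the same sum (-0.51). Ldha, the lactate dehydrogenase subunit that favours lactate, had 441 ± 28.3 and 397 ± 36.2 (log2 difference -0.15, adjusted p = 0.276 from limma). Tpi1, triose phosphate isomerase, had 142 ± 7.36 and 146 ± 32.1. Pgam1, phosphoglycerate mutase, had 82.9 ± 8.81 and 66.1 ± 11.0, and Pgk1, phosphoglycerate kinase, had 46.7 ± 7.55 and 53.8 ± 14.6, and the ages overlapped for each of these 4 enzymes.

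Gapdh, the dehydrogenase often used as a loading control, was among the lowest enzymes of the pathway in this table. Its FPKM was 26.9, 30.5 and 31.0 at P5 and 15.3, 19.0 and 32.1 at P30, and P30 replicate 3 lay above all P5 values (log2 difference -0.46, SE 0.27, adjusted p = 0.208 from limma). At P5, Aldoa, which acts a few steps earlier, thus stood at 342 FPKM and Gapdh at 29.4. A search of mm9 with the Gapdh coding sequence found 158 other places that matched at least 50% of its length at an identity of at least 90%, the best at 100%. The same search found 11 such places for Ldha, 6 for Aldoa, 6 for Eno1, 4 each for Pkm2, Pgam1 and Bnip3, 2 each for Pgk1, Bnip3l and Higd1a, and 1 each for Gpi1, Tpi1 and Ldhb. For the other 22 members none was found. Reads from these 13 genes can fit more than one place in the genome, and the alignment with TopHat at its default parameters does not drop every such read. How Cufflinks then divided them is not given in the sources used here, so their levels are uncertain. The part of the copies in the low Gapdh level was not tested.

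A further group of enzymes differed more between the P30 isolations than between the ages. Eno1, the common enolase, had 23.4, 15.5 and 33.0 FPKM at P5 and 70.2, 110 and 13.7 at P30 (log2 difference 1.03, SE 0.70, adjusted p = 0.272 from limma). Ldhb, the lactate dehydrogenase subunit that favours pyruvate, had 36.4, 30.9 and 22.3 at P5 and 78.4, 75.6 and 23.7 at P30 (log2 difference 0.81, SE 0.45, adjusted p = 0.188 from limma). For both genes P30 replicate 3 stood with the P5 isolations and the other P30 isolations were higher. Without P30 replicate 3 the difference was 1.90 for Eno1 (adjusted p = 0.00765 from limma) and 1.36 for Ldhb (adjusted p = 0.00537 from limma), so 1 isolation decided both calls. The same isolation had the lowest summed FPKM of RPE markers at P30, 522 against 4012 and 2296, and of melanocyte markers, 104 against 1054 and 948. These lists may not mark separate cells, and the part of such cells in Eno1 and Ldhb was not tested.

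Aldoc, the aldolase of brain and retina, had 2.92, 1.05 and 1.09 at P5 and 9.11, 43.0 and 2.41 at P30, and its difference of 2.17 had a wide error (SE 0.88, adjusted p = 0.0884 from limma). Eno2, the neuronal enolase, had 5.42, 3.31 and 4.32 at P5 and 7.21, 23.3 and 13.7 at P30. Its values did not overlap between ages, but the difference of 1.44 (SE 0.43, adjusted p = 0.0350 from limma) did not pass, except without P30 replicate 1 (1.84, adjusted p = 0.00860 from limma). Aldoc and Eno2 reached the mean FPKM of 5 needed for the test at P30 alone. The share of Eno2 in the enolase sum was higher at P30 by 9.57 percentage points on average, with both enolases at 13.7 FPKM in P30 replicate 3, and without that isolation it was lower at P30, by -2.64 points. Summed over the 17 enzymes, the FPKM was 2259, 2301 and 2296 at P5 and 2803, 2995 and 2263 at P30, so that P30 replicate 3 again lay within the P5 range. The sum over all genes was also higher at P30, and lowest there in replicate 3. It was 1.47e+06, 1.49e+06 and 1.43e+06 at P5 and 1.64e+06, 1.73e+06 and 1.57e+06 at P30.

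**Figure D3:**
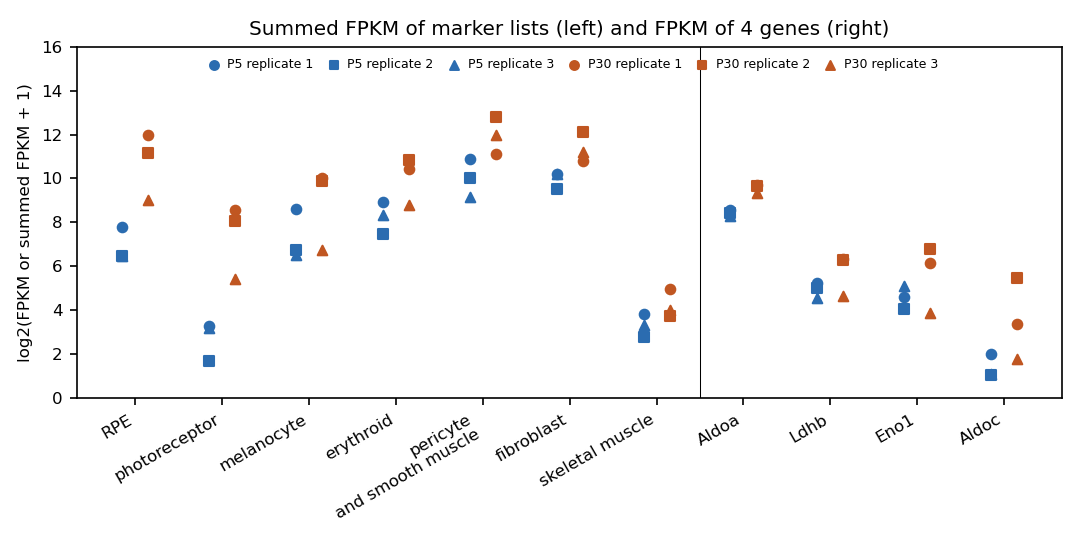
Summed FPKM of marker lists of other cells (left of the line) and FPKM of Aldoa, Ldhb, Eno1 and Aldoc (right of it) in each isolation, as log2 of the value + 1. P30 replicate 3 has the lowest P30 value of the RPE, photoreceptor, melanocyte and erythroid sums and of all 4 genes.

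Of the 4 kinases that steer the pathway 1 fell and none rose. Pdk3, which blocks pyruvate dehydrogenase and so keeps pyruvate out of the mitochondrial cycle, had 43.2, 47.4 and 46.6 FPKM at P5 and 21.7, 30.5 and 18.2 at P30. All P30 values were lower, and the mean fell from 45.7 ± 2.20 to 23.5 ± 6.36, a P5 over P30 ratio of 1.95 (log2 difference -0.96, SE 0.20, adjusted p = 0.00957 from limma). This call was narrow, since without P5 replicate 1, 2 or 3 or P30 replicate 1 or 3 the adjusted p was between 0.0181 and 0.0474. Pdk3 lies on chromosome X, 91009946 to 91077540 of mm9. Pdk1, a related kinase, had 44.2, 46.2 and 51.1 at P5 and 29.4, 30.2 and 32.9 at P30, again without overlap, and its difference of -0.60 (SE 0.13, adjusted p = 0.0122 from limma) narrowly missed the threshold. After rescaling to the same sum it was -0.75 and passed. Pfkfb3, which makes the activator of phosphofructokinase and is known as a driver of EC glycolysis in sprouting vessels, had 55.0, 49.5 and 50.6 at P5 and 64.0, 118 and 67.9 at P30. Each P30 value was higher, and P30 replicate 2 stood far above the others (log2 difference 0.62, SE 0.23, adjusted p = 0.0684 from limma). Pfkfb4, an isozyme of Pfkfb3, was low at both ages, with 6.21 ± 0.192 and 6.74 ± 0.932.

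**Figure D4:**
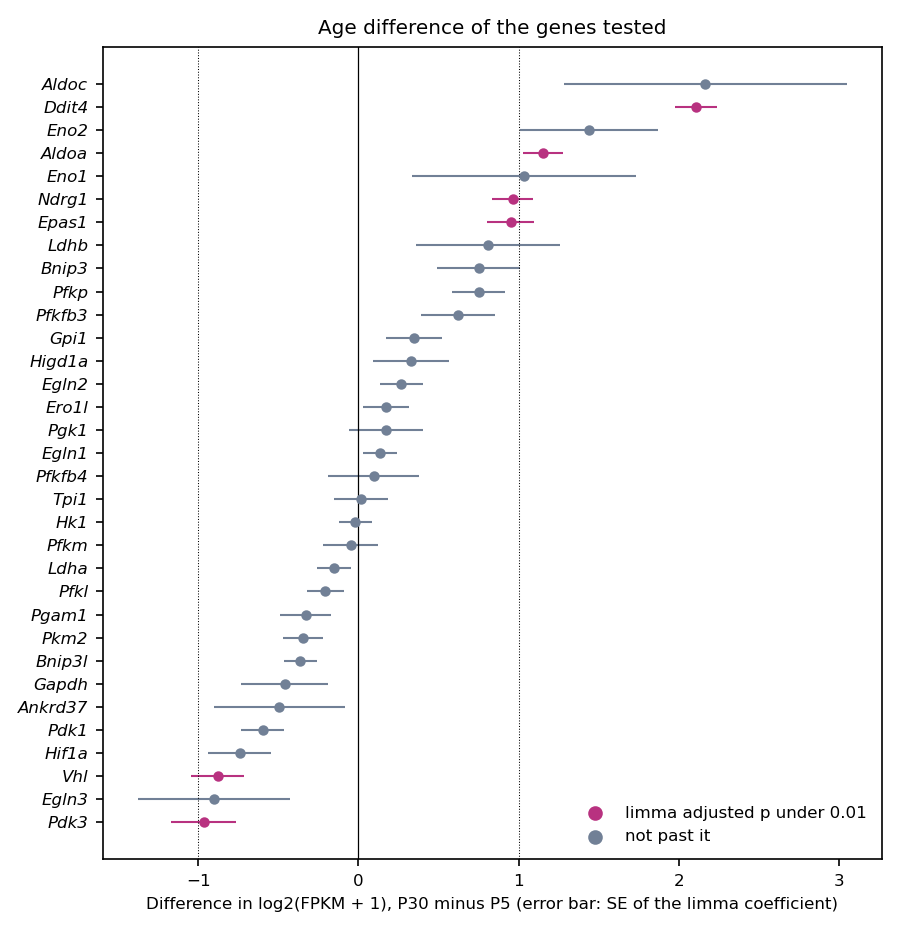
Difference between ages in log2(FPKM + 1), P30 minus P5, with the SE of the limma coefficient, for the 33 members tested, and dotted lines at 1 and -1. Pink points mark the 6 genes with an adjusted p under 0.01, from Ddit4 at 2.10 to Pdk3 at -0.96, and the largest difference, Aldoc, has too wide an error to pass.

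Of the HIF subunits, Epas1 was the more abundant at both ages and rose. At P5 it had 1528, 1434 and 1085 FPKM and at P30 it had 2386, 2741 and 2622, without overlap. The mean went from 1349 ± 233 to 2583 ± 181 (log2 difference 0.95, SE 0.15, adjusted p = 0.00292 from limma). The adjusted p was 0.0140 without P5 replicate 2 and 0.0101 without P30 replicate 2. With quantile normalization the difference was 0.51 and did not pass (adjusted p = 0.0382 from limma). Epas1, known for its high level in ECs, lies on chromosome 17, 87153247 to 87232750 of mm9. Hif1a, the subunit made by most cells, had 551, 396 and 617 at P5 and 255, 370 and 303 at P30. Its P30 values were all lower, by a small margin for P30 replicate 2, and the difference of -0.74 (SE 0.20, adjusted p = 0.0226 from limma) did not pass, while after rescaling to the same sum it was -0.91 with an adjusted p of 0.00782. The ratio of Epas1 to Hif1a, formed after both had been seen and given with no test, was 2.78, 3.62 and 1.76 at P5 and 9.35, 7.42 and 8.65 at P30. Epas1 thus led Hif1a in each isolation, and by more in each P30 isolation.

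Vhl, the receptor that marks hydroxylated HIF for destruction, fell. It had 74.5, 75.6 and 71.1 FPKM at P5 and 36.7, 49.9 and 33.9 at P30, and the P5 values lay close together and well above all P30 values. The mean went from 73.7 ± 2.37 to 40.2 ± 8.53, a P5 over P30 ratio of 1.83 (log2 difference -0.88, SE 0.16, adjusted p = 0.00599 from limma). Without P5 replicate 1, 2 or 3 or P30 replicate 1 or 3 the adjusted p was between 0.0128 and 0.0334. Vhl lies on chromosome 6, 113573953 to 113581627 of mm9. The oxygen-sensing hydroxylases did not pass the test. Egln1, the main HIF hydroxylase, had 96.4, 104 and 96.2 at P5 and 119, 105 and 102 at P30. Egln2 had 100.1, 109 and 88.2 at P5 and 109, 113 and 138 at P30. For both the ages overlapped, at a log2 difference of 0.14 (adjusted p = 0.345 from limma) and 0.27 (adjusted p = 0.153 from limma). Egln3, the hydroxylase that HIF itself induces, had 14.5, 11.6 and 44.2 at P5 and 8.02, 10.6 and 12.0 at P30, and its mean at P5 rested on replicate 3 (log2 difference -0.90, SE 0.47, adjusted p = 0.167 from limma).

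The hypoxia response genes held the largest rise. Ddit4, also called Redd1, which restrains mTORC1 and is induced by hypoxia as well as by glucocorticoids and other stress, had 520, 430 and 383 FPKM at P5 and 1764, 1909 and 2033 at P30. The ages were far apart and each was tight, with means of 444 ± 69.4 and 1902 ± 134, a ratio of 4.28 (log2 difference 2.10, SE 0.13, adjusted p = 0.000127 from limma). The gene passed in all 17 alternative fits, at between 1.85 and 2.22. Its highest value was in P30 replicate 3. That isolation had the lowest RPE sum of P30 but not the lowest pericyte or fibroblast sum. The part of these cells was not tested. Ddit4 lies on chromosome 10, 59412423 to 59414518 of mm9, and the window printed above lies before its start. Ndrg1, a stress and differentiation gene that hypoxia induces, had 369, 377 and 309 at P5 and 779, 666 and 616 at P30, without overlap. Its lowest P30 value was in replicate 3. Its means were 352 ± 37.5 and 687 ± 83.6 (log2 difference 0.96, SE 0.13, adjusted p = 0.00153 from limma), it passed in all 17 alternative fits, and it lies on chromosome 15, 66760883 to 66801202 of mm9, where Gm17035 and Gm2895 on the opposite strand share exonic sequence.

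The other members of the hypoxia response did not pass the test or were too low for it. Car9, a carbonic anhydrase and a classical HIF target, was listed at 2.58, 3.66 and 3.34 at P5 and at 0, 1.27 and 1.09 at P30, too low for the test. Bnip3, which tags mitochondria for removal, had 16.5, 17.9 and 16.1 at P5 and 40.9, 29.5 and 20.1 at P30 (log2 difference 0.75, SE 0.26, adjusted p = 0.0557 from limma). Its relative Bnip3l had 240, 229 and 209 at P5 and 190.5, 166 and 170.2 at P30 (log2 difference -0.36, SE 0.10, adjusted p = 0.0285 from limma). The P30 values were all higher for Bnip3 and all lower for Bnip3l, and neither gene passed, although Bnip3l did after rescaling to the same sum (-0.53, adjusted p = 0.00562 from limma). Ankrd37, an ankyrin repeat gene induced by HIF, had 30.6 ± 9.34 and 22.8 ± 11.1, Ero1l, an oxidase of protein folding, had 70.5 ± 2.80 and 80.4 ± 13.0, and Higd1a, a mitochondrial protein induced by hypoxia, had between 14.5 and 18 at P5 and between 15.7 and 25.9 at P30. Each of these 3 overlapped between the ages, with adjusted p values between 0.297 and 0.364 from limma.

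Genes around the pathway were taken from 6 further lists, chosen like the members with earlier results of these data known. Of 6 tested carriers of glucose and lactate, 2 rose and 0 fell, where 8.51% of all genes tested rose and 10.7% fell. Slc2a1, the main glucose carrier GLUT1, had 1077, 1028 and 529 FPKM at P5 and 3184, 2130 and 2029 at P30, all P30 values being higher (log2 difference 1.52, SE 0.30, adjusted p = 0.00733 from limma). Slc16a1, the lactate carrier MCT1, had 10.4, 10.3 and 13.4 at P5 and 70.7, 61.3 and 35.2 at P30, again without overlap (log2 difference 2.15, SE 0.28, adjusted p = 0.00138 from limma). Slc16a1 passed in all 17 alternative fits. Slc2a1 passed in 8, and its adjusted p was between 0.0124 and 0.0194 with any 1 of the 6 isolations left out. Both carriers are also abundant in the RPE, whose part in these values was not tested. The P30 isolations stood in the order of the RPE sums, 4012, 2296 and 522, in both genes. Of the members that rose, Aldoa and Ndrg1 had the same order, and Ddit4 and Epas1 did not. The share of all genes with this order was not taken, so it sorts no gene by its source. The part of the RPE in these genes was not tested.

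For the lists that follow, the share of all genes tested that passed was 19.2%. Of 12 other glycolytic isozymes tested, 1 rose and 1 fell, and the one past 2-fold was Eno3, the muscle enolase, with 5.29, 7.35 and 8.04 at P5 and 40.8, 24.0 and 16.9 at P30 (log2 difference 1.76, SE 0.34, adjusted p = 0.00706 from limma). Without P5 replicate 1, 2 or 3 or P30 replicate 1 or 2 its adjusted p was between 0.0102 and 0.0286. None of the 13 genes for pyruvate entry into mitochondria and none of the 8 of the pentose phosphate pathway passed in limma. All P30 isolations lay below all P5 isolations for 5 of the 13 and 3 of the 8, where 33.0% of all genes tested did so. They lay above for 2 and 2, where 22.0% did. Of 11 tested regulators of HIF, 1 rose and 1 fell, and the one past 2-fold was Siah2, a ligase that degrades prolyl hydroxylases, with 35.1 ± 7.34 and 72.4 ± 13.4 (log2 difference 1.03, SE 0.20, adjusted p = 0.00731 from limma). With any 1 of the 6 isolations left out its adjusted p was between 0.0119 and 0.0287.

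Of 25 further hypoxia targets tested, 4 rose and 1 fell. Of all genes tested, 8.51% rose and 10.7% fell, 19.2% in all. Bhlhe40, a transcription factor of the clock and of the hypoxia response, had 296, 171 and 210 FPKM at P5 and 1351, 1478 and 813 at P30 (log2 difference 2.41, SE 0.27, adjusted p = 0.000795 from limma). Bhlhe40 passed in all 17 alternative fits. P4ha2, a collagen prolyl hydroxylase, had 15.3, 17.01 and 14.2 at P5 and 65.3, 45.9 and 39.1 at P30 (log2 difference 1.60, adjusted p = 0.00164 from limma, and 0.0115 without P5 replicate 3). Gys1, the glycogen synthase of tissues other than liver, fell from 27.8 ± 3.44 to 11.2 ± 1.54 (log2 difference -1.24, SE 0.20, adjusted p = 0.00321 from limma), with an adjusted p between 0.0146 and 0.0275 without P5 replicate 1, 2 or 3. Vegfa, the best known HIF target, had 69.2, 63.7 and 72.5 at P5 and 67.0, 107 and 61.7 at P30, and the ages overlapped (log2 difference 0.16, adjusted p = 0.577 from limma). It was -0.01 after rescaling to the same sum and -0.09 without P30 replicate 2.

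**Figure D5:**
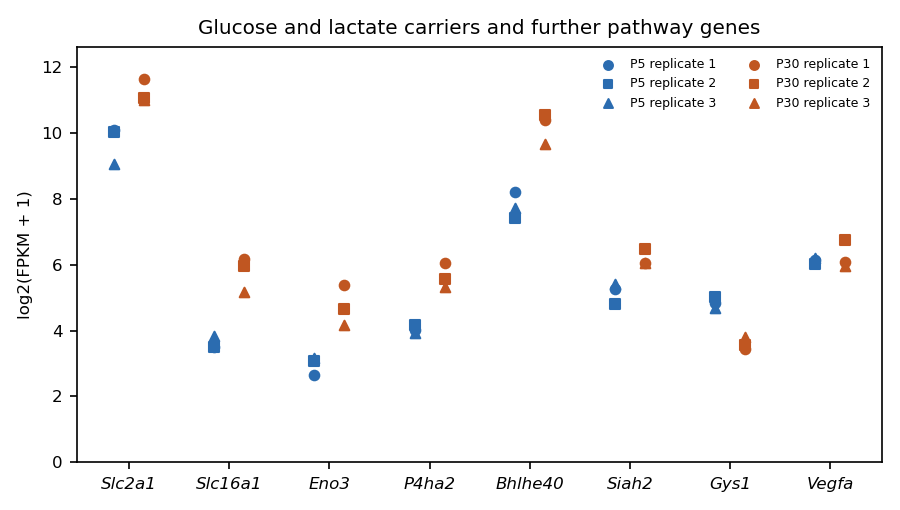
Level of 8 further pathway genes in each isolation as log2(FPKM + 1), with P5 in blue and P30 in orange. Slc2a1, Slc16a1, Eno3, P4ha2, Bhlhe40 and Siah2 lie higher in all P30 isolations, Gys1 lower, and Vegfa overlaps between the ages.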

How the data were processed

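RNA of choroid ECs from 3 isolations at P5 and 3 at P30 was sequenced on an Illumina HiSeq2000 after TruSeq library preparation. The authors aligned the reads to mm9 with TopHat at its default parameters, calculated FPKM with Cufflinks using GC and upper quartile normalization, and deposited 1 FPKM value per gene symbol and isolation. The submitters' processing notes also name CASAVA 1.8.2 and FastQC. The versions of TopHat and Cufflinks and the gene annotation are not given in the sources used here. The authors' DESeq2 comparison of counts was left out. Low FPKM values did not step in whole reads (at most 6.72% of genes in a log2 ratio bin of 0.05), so depth is unknown and no counting error is given. No pair of samples held identical values.

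Groups follow the sample labels. The deposited FPKM were tested as log2(FPKM + 1) in limma (version 3.58.1, R version 4.3.3; trended eBayes) over genes whose mean reached an FPKM of 5 at either age, with Benjamini-Hochberg adjustment over all of them, at an adjusted p under 0.01 with and without a 2-fold limit on mean FPKM + 1. Standard errors are those of the coefficient. The fit was tested on simulated data. Shares of paralogs were compared with exact permutation tests. Near copies were searched in NCBIM37 with BLAST+ 2.17.0, and gene positions and overlaps are those of GENCODE vM1. Promoter windows are from RefSeq (GRCm38.p6).

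The members and the gene lists were chosen with earlier results of these data known. All members are named. Values per isolation are given for those past the threshold and the HIF and sensor genes, and for others where the isolations differed. Of the further lists, genes past 2-fold and Slc2a1 and Vegfa are named. One gene past 2-fold is not reported here. Alternatives were other pseudocounts, filters and scalings, no trend, a replicate block and each isolation left out, and were extended to the further pathway genes after seeing the data.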

Additional observations from a re-analysis of the deposited data

How the results depend on the processing

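Over the 17 alternatives per gene, the direction of each of the 6 genes past the threshold was kept. Ddit4, Aldoa and Ndrg1 passed in all of them, Epas1 in 14, Vhl in 10 and Pdk3 in 7. The number of members past an adjusted p of 0.01 was 10 after rescaling to the same sum, 31.2% of members where 28.7% of all genes passed, and those that fell numbered 6 there, 1 with a minimum mean FPKM of 1, with no filter or with a pseudocount of 0.1, and 0 without the trend and with the replicate block. The replicate numbers come from the labels and did not pair the isolations (correlations of their deviations of -0.06, -0.09 and -0.03), and with the block the calls over all genes went from 2400 to 1415. The number of members past 2-fold was 4 with median-of-ratios scaling, 3 after rescaling to the same sum (Ddit4, Vhl and Pdk3) and 1 with quantile normalization. Leaving out 1 isolation gave between 2 and 5 members past 2-fold, between 3 and 7 past the adjusted p, between 3 and 7 that rose and between 0 and 2 that fell, and between 693 and 1553 genes past 2-fold and between 757 and 2265 past the adjusted p over the whole table; the cause was not tested, but these fits hold fewer samples. Rescaling to the same sum moved the median of all genes to -0.27 from -0.10, and the other scalings to between -0.08 and -0.01. Genes near 0 changed sign. Hk1 was 0.066 with median-of-ratios scaling and between -0.0579 and 0.0454 with 1 isolation left out. Pfkm was 0.0356 with median-of-ratios scaling, 0.0294 with quantile normalization and between -0.219 and 0.0696 with 1 left out. Tpi1 was -0.16 after rescaling and between -0.12 and 0.20 with 1 left out, and Egln1 was -0.033 after rescaling. Vegfa was -0.011 after rescaling and between -0.0867 and 0.308 with 1 left out. The summed FPKM of the enzymes and the paralog shares moved by less than the SD between isolations, pooled over the ages for the shares, which for Eno2 is wide (15.5 points): its share difference was between -2.64 and 17.7 points with 1 isolation left out. That of Aldoc was 0.251 points without P30 replicate 2 against 1.70 with it. Depth is unknown, so it cannot be said how far genes at low FPKM, Hk2 and Car9 among them, are limited by it.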
